A study of Homo sapiens with 11 samples.

Results

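The podocyte genes described here are 8 named genes of the glomerular filter, NPHS1, SYNPO, PODXL, CD2AP, ACTN4, INF2, PLCE1 and TRPC6, read out in HK2, an immortalised line of human proximal tubule epithelial cells. They were taken by gene name, by a rule that uses no measured value, although earlier results of these data were known when they were chosen. They are 8 of the 19645 protein-coding genes that have RNA-seq values and a position in the GRCh37 annotation. The cells were grown in 1 condition, so the study holds no treated or control group. It gives 2 RNA-seq libraries and 2 ChIP-seq replicates each for H3K4me3, H3K27ac and H3K27me3, and nothing in the labels says whether replicates came from separate cultures. With a single condition no comparison between groups could be tested, and the values below are descriptions of these libraries and peak lists without p-values.

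Podocytes are the epithelial cells that cover the glomerular capillaries, and their interlocking foot processes are joined by the slit diaphragm, the last barrier of the kidney filter. The slit diaphragm is built from nephrin and its partners, is tied to the actin cytoskeleton of the foot process, and signals through phospholipases and calcium channels. Mutations in each of NPHS1, CD2AP, ACTN4, INF2, PLCE1 and TRPC6 are known causes of inherited nephrotic syndrome or focal segmental glomerulosclerosis. Tubule cells belong to the same nephron but build no foot processes. Of the marks measured, H3K4me3 is found at promoters, H3K27ac at active promoters and enhancers, and H3K27me3 in chromatin silenced by Polycomb complexes.

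In these cells the cytoskeletal and adaptor genes were expressed with active marks, while nephrin and the calcium channel were not. Expression is given as FPKM, the fragments on a transcript scaled to its length and to the size of the library, summed over the transcripts of a gene. At least 1 FPKM in both libraries was reached by 6 of the 8 genes, beside 58.8% of protein-coding genes. The genes ACTN4, INF2, SYNPO, CD2AP and PLCE1 had H3K4me3 and H3K27ac peaks at a TSS in both replicates and no H3K27me3 peak there, a pattern held by 50.8% of the 20162 annotated protein-coding genes. All 5 of them reached 1 FPKM, as did 92.9% of the genes with that pattern and RNA-seq values. PODXL combined H3K4me3 with H3K27me3 and was still expressed, and NPHS1 and TRPC6 were near 0.

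The labelled cell type was checked against lists of markers. Of 10 proximal tubule genes, 2 reached 1 FPKM in both libraries, GGT1 at 64.1 and 58.1 FPKM and SLC5A2 at 1.56 and 2.36 FPKM. The defining tubule genes LRP2, SLC22A6 and SLC22A8 were listed at 0 in both libraries, so these cells carried few of the transport genes of a proximal tubule. Of 6 genes listed for simple epithelia, 5 reached the threshold, with KRT8 at 179 and 184 FPKM. The cadherin CDH2 is among these 5, at 59.3 and 59.7 FPKM, while the cadherin CDH1 lay below the threshold at 0.210 and 0.283 FPKM. Of 5 endothelial genes none did, and their summed FPKM was 0.00387 and 0.0404. The leukocyte gene PTPRC and the fibroblast gene COL1A2 were listed at 0, although CD68 and COL1A1 of the same lists had means of 39.6 and 40.1 FPKM. In bulk RNA a gene expressed in few cells cannot be told apart from 1 expressed weakly in all of them.

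Promoter sequences are shown for 4 of the genes because they span high and low CpG content, the dinucleotide density that separates the main kinds of human promoter. Each run is the 250 bases before the canonical TSS, the first base of the transcript that the annotation marks as canonical, read 5′ to 3′ on the strand of the gene from the GRCh37 genome, with each CpG in capitals. They lie at chr19:39138039-39138288 (plus strand) for ACTN4, chr5:150019972-150020221 (plus strand) for SYNPO, chr11:101454739-101454988 (minus strand) for TRPC6 and chr19:36343407-36343656 (minus strand) for NPHS1.
ACTN4: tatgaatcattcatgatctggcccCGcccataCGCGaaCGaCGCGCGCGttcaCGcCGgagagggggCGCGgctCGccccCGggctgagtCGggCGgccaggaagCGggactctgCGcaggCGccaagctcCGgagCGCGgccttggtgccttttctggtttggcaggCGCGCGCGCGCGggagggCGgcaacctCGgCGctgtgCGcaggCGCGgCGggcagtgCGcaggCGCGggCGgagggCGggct
SYNPO: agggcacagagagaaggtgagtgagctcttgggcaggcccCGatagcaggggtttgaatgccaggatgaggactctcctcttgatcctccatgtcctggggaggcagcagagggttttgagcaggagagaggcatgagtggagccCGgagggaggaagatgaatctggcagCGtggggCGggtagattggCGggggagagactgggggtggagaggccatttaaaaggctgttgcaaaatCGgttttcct
TRPC6: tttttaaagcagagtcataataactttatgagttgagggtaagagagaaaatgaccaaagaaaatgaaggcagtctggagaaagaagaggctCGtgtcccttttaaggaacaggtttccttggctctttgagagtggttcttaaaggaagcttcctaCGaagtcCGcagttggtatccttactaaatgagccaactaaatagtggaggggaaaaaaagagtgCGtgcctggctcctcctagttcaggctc
NPHS1: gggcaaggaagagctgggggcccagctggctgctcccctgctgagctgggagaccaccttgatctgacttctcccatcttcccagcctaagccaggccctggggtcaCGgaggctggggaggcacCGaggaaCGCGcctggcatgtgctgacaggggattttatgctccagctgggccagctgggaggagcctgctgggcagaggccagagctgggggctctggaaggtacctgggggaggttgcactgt
ACTN4 held 40 CpGs in this window, and 96.8% of 19862 promoters of the same length held fewer. At the other end were SYNPO with 6, TRPC6 with 4 and NPHS1 with 4, against a median of 18 over all promoters. Windows not printed held 35 CpGs in PLCE1, 32 in CD2AP and 24 in INF2. Of the CpG-poor starts, that of SYNPO had both active marks, that of TRPC6 had H3K27me3 and that of NPHS1 had no mark.

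The mean FPKM of the 8 genes lay between the 20.4 and the 99.1 percentile of protein-coding genes. ACTN4 was highest, followed by INF2, SYNPO, CD2AP, PODXL, PLCE1, NPHS1 and TRPC6. The values of the 2 libraries overlapped for the neighbours SYNPO and CD2AP and for NPHS1 and TRPC6, so the order within these pairs is not resolved. Every other neighbouring pair was separated in both libraries.

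**Figure D1:**
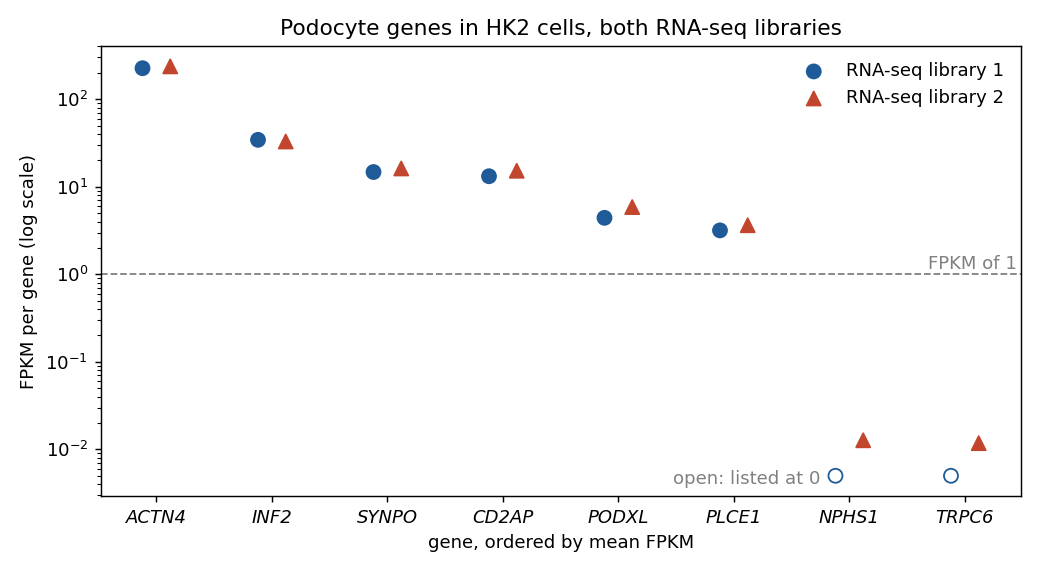
FPKM per gene on a log scale for the 8 podocyte genes, with a circle for RNA-seq library 1 and a triangle for library 2, ordered by the mean. Open symbols are values listed at 0 and the dashed line is 1 FPKM. ACTN4 lies highest at 226 and 237, and NPHS1 and TRPC6 lie at 0 in library 1 and at 0.0127 and 0.0118 in library 2.

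Peaks were compared at start sites and over gene bodies. A peak counted at a gene when it overlapped the 1 kb on either side of any annotated TSS by at least 1 base, and a mark counted as present when this held in both replicates. By this rule H3K4me3 was present at 7 of the 8 genes (69.6% of protein-coding genes), H3K27ac at 5 (54.5%) and H3K27me3 at 3 (11.2%). Over the gene bodies H3K4me3 was present at 8 (72.6%), H3K27ac at 6 (59%) and H3K27me3 at 3 (16%). The 5 genes with both active marks had no H3K27me3 peak anywhere in the gene body in either replicate, as was the case for 77.8% of protein-coding genes.

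**Figure D2:**
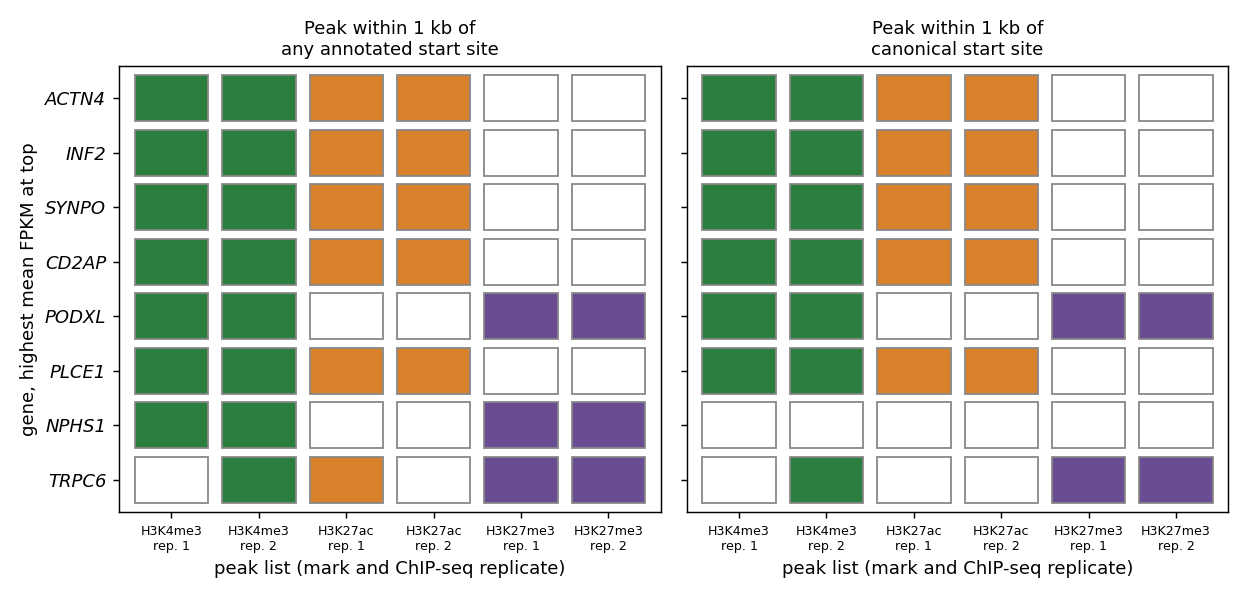
Presence of a peak within 1 kb of any annotated TSS (left) or of the canonical TSS (right), with a row for each gene and a column for each of the 6 peak lists. Filled squares mark a peak. NPHS1 has filled squares at left and none at right, and TRPC6 loses its H3K27ac square.

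ACTN4 encodes α-actinin-4, which crosslinks actin filaments in foot processes and in many other cells. It lies on the plus strand at chr19:39138289-39222229 (ENSG00000130402). Its FPKM was 226 in library 1 and 237 in library 2, or 231 ± 7.77 (SD, n = 2), above 99.1% of protein-coding genes. The canonical start carried H3K4me3 peaks of 3566 and 2763 bp in replicates 1 and 2. H3K27ac peaks covered 72.6% of the gene body in replicate 1 and 27.4% in replicate 2, more than in 97.9% and 96.8% of protein-coding genes. Peaks of the 2 H3K27ac replicates overlapped in 18 stretches of the gene, of which 16 lay more than 1 kb from any ACTN4 TSS and covered 20871 bp together. The longest of these stretches, of 5632 bp, began 34.3 kb inside the gene. The lncRNA gene ENSG00000267375 lies in this part of the gene on the opposite strand, with 0.587 FPKM in library 1 and 0 in library 2.

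The split of ACTN4 among its transcripts was less stable than its sum. The canonical transcript ENST00000252699 had 101 and 99.5 FPKM. The retained-intron transcript ENST00000497637, a model of 877 bases at the end of the gene, had 110 and 88.1 FPKM. FPKM is scaled to the length of each model, so this short model weighs as much in the sum as the full transcript while holding fewer aligned bases. The coding transcript ENST00000440400 had 3.88 FPKM in library 1 and 38.8 in library 2, and both it and the canonical transcript end in the same exon of 2310 bp. Protein-coding transcripts took 47.1% and 58.8% of the ACTN4 sum.

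INF2 encodes a formin that both builds and severs actin filaments. The gene (ENSG00000203485) spans chr14:105147483-105188872 on the plus strand. Its FPKM was 34.3 and 32.8, or 33.6 ± 1.05 (SD, n = 2), above 90.3% of protein-coding genes. The canonical transcript ENST00000392634 took 64.7% and 68.6% of the sum, at 22.2 and 22.5 FPKM. The longer coding form ENST00000330634 had 4.64 and 3.93 FPKM. INF2 had active marks at separate starts. The canonical start at position 105155955 carried H3K4me3 and H3K27ac in both replicates, and so did a start 8472 bp upstream, where replicate peaks overlapped over 1544 bp for H3K4me3 and 2491 bp for H3K27ac. The RNA-seq annotation holds 1 of the 4 transcripts of the upstream start, ENST00000540171, under another gene identifier, and it had 0.0318 and 0.0976 FPKM. The output of the other 3 was not measured.

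SYNPO encodes synaptopodin, an actin-associated protein of foot processes and of dendritic spines. It lies on the plus strand at chr5:149980642-150038769 (ENSG00000171992). Its FPKM was 14.7 and 16.2, or 15.4 ± 1.02 (SD, n = 2), above 77.5% of protein-coding genes. Most of it came from a single start region. The canonical transcript ENST00000307662 had 8.16 and 11.0 FPKM, and ENST00000519664, which begins 18 bp away, had 4.36 and 4.26 FPKM. The longest transcript ENST00000394243, which begins 39.6 kb upstream, had 0.494 and 0.449 FPKM. At the canonical start H3K27ac peaks were 9667 and 6152 bp wide. The start 39.6 kb upstream had an H3K4me3 peak of 424 bp in replicate 2 and no other peak within 1 kb. Starts between them were marked too. The start 23.0 kb upstream had H3K27ac in both replicates and H3K4me3 in replicate 1. Its coding transcript ENST00000522122 was listed at 0 FPKM in both libraries. The start 15.9 kb upstream had H3K4me3 in both replicates and H3K27ac in replicate 1. Its non-coding transcript ENST00000518872 had 1.70 and 0.471 FPKM. SYNPO also had H3K4me3 and H3K27ac in both replicates 15.7 and 16.2 kb downstream of the canonical start, away from any TSS.

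**Figure D3:**
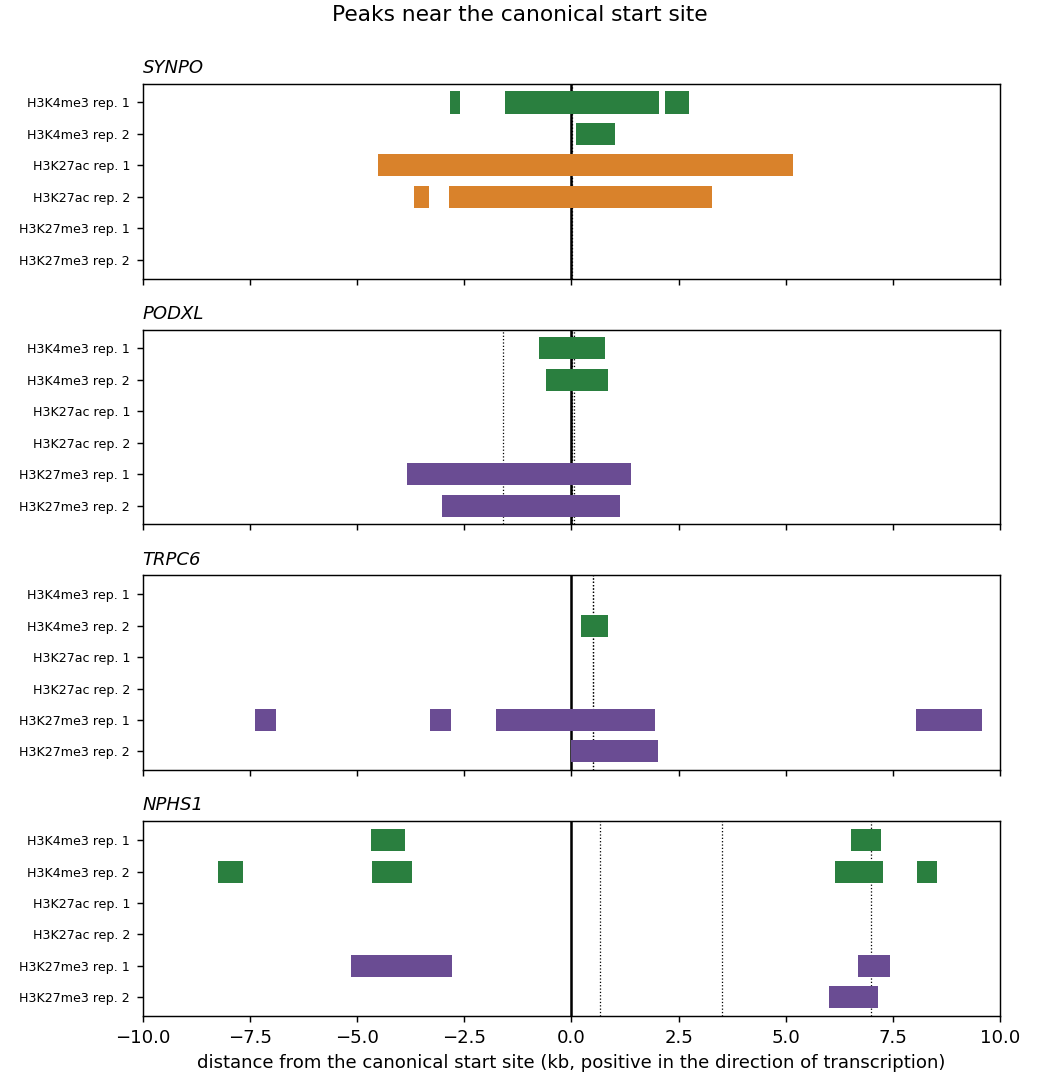
Peaks of the 6 lists within 10 kb of the canonical TSS of SYNPO, PODXL, TRPC6 and NPHS1, plotted as distance in kb with the direction of transcription to the right. The solid line is the canonical TSS and dotted lines are other annotated starts. SYNPO has broad H3K27ac, PODXL has H3K4me3 inside H3K27me3, TRPC6 has H3K27me3, and NPHS1 has no peak at its canonical start.

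CD2AP encodes an adaptor that links the slit diaphragm to actin and is made in most epithelia. CD2AP (ENSG00000198087) occupies chr6:47445525-47594999 on the plus strand. Its FPKM was 13.2 and 15.2, or 14.2 ± 1.44 (SD, n = 2), above 75.9% of protein-coding genes. The canonical transcript ENST00000359314 took 92.6% and 94.5% of the sum. A single start was marked among its 5 TSS positions. There H3K27ac peaks were 11370 bp wide in replicate 1 and 2037 bp in replicate 2, and H3K4me3 peaks were 5401 and 1547 bp. The promoter is shared with the antisense lncRNA CD2AP-DT, whose start lies 371 bp away and whose FPKM was 0.805 and 0.312. Total RNA had been depleted of ribosomal RNA, and whether the libraries kept strand is not given in the sources used here, so reads of an overlapping antisense gene cannot be told apart from those of the member.

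PODXL, PLCE1 and the 2 silent genes had lower levels. PODXL encodes podocalyxin, the charged sialomucin that coats foot processes and also lines blood vessels. The gene (ENSG00000128567) spans chr7:131185021-131242976 on the minus strand. Its FPKM was 4.41 and 5.85, or 5.13 ± 1.02 (SD, n = 2), above 55.9% of protein-coding genes. Its canonical start carried H3K4me3 peaks of 1527 and 1426 bp inside H3K27me3 peaks of 5242 and 4149 bp. No H3K27ac peak touched the start or the gene body in either replicate, and the nearest lay 68.4 kb away in replicate 1 and 100.5 kb away in replicate 2. H3K4me3 and H3K27me3 in both replicates with H3K27ac in neither was found at 4.27% of protein-coding genes, and of the 856 such genes with RNA-seq values 5.14% reached 1 FPKM in both libraries. Their median was 0.0533 FPKM, and 849 of the 856 were lower than PODXL. Peaks do not tell whether the marks lie on the same chromosomes or in different cells.

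Most of the PODXL sum was assigned to a transcript annotated as subject to nonsense-mediated decay. ENST00000446198 had 3.14 FPKM in both libraries, against 0.565 and 1.43 for the canonical ENST00000378555 and 0.627 and 0.526 for the coding ENST00000322985. Of the bases aligned to ENST00000446198, 88.9% and 89.5% lay in its last exon of 4247 bp, while the last exon of both coding models, which has the same splice boundary, is 378 bp long. Exons common to these 3 transcripts had a summed coverage of 26.1 and 24.4 for an exon of 62 bp and 24.6 and 20.5 for 1 of 148 bp, beside 23.0 and 22.6 in the last exon. The first exon of ENST00000446198, of 304 bp, had 18.6 and 21.1. Exons of 168 and 606 bp, also common, were lower, at 1.83 and 2.09 and at 6.13 and 9.64. Counting coding transcripts alone left PODXL at 1.19 and 1.95 FPKM, still above the threshold.

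**Figure D4:**
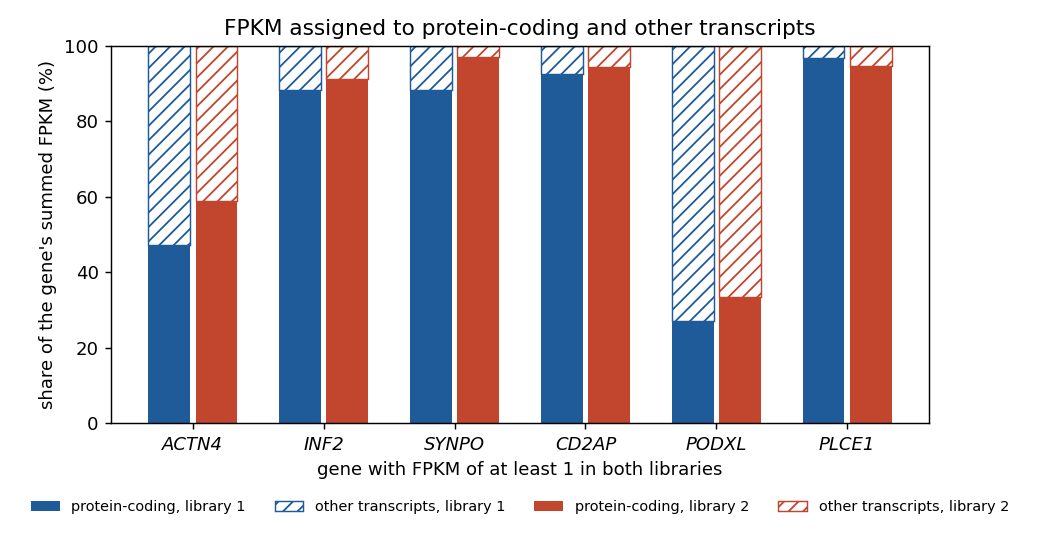
Share of each gene's summed FPKM assigned to protein-coding transcripts (solid) and to all other transcripts (hatched), as stacked bars for RNA-seq libraries 1 and 2. PODXL, at 27% and 33.3%, and ACTN4, at 47.1% and 58.8%, have the smallest coding shares.

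PLCE1 encodes phospholipase C epsilon, which joins Ras-family signalling to phosphoinositide turnover. It lies on the plus strand at chr10:95753688-96092580 (ENSG00000138193). Its FPKM was 3.17 and 3.63, or 3.40 ± 0.323 (SD, n = 2), above 50.2% of protein-coding genes. The canonical transcript ENST00000371380 took 95.0% and 93.1% of it. The canonical start had H3K4me3 peaks of 2264 and 1333 bp, and the H3K27ac peak of 3502 bp in replicate 1 stood against 3 peaks of 683, 441 and 334 bp within 1 kb of the start in replicate 2. The coding starts 95.1 and 95.2 kb downstream had no peak of any mark. Inside the gene, 4 stretches of replicated H3K27ac lay away from any PLCE1 TSS, between 43.3 and 231 kb from the canonical start.

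TRPC6 encodes a calcium-permeable channel opened by diacylglycerol. TRPC6 (ENSG00000137672) occupies chr11:101322295-101743293 on the minus strand. It was listed at 0 FPKM in library 1 and at 0.0118 in library 2, which corresponds to 300 aligned bases on ENST00000344327. At the canonical start, position 101454738, H3K27me3 peaks were 3701 and 2024 bp wide. H3K4me3 was called there in replicate 2 alone, with a peak of 636 bp. Replicate 1 held 45 H3K27me3 peaks over the gene body and replicate 2 held 18, covering 19.2% and 2.35% of it, more than in 94.4% and 89.9% of protein-coding genes. This annotated body of 420999 bp reaches 288555 bp upstream of the canonical start. Many of the counted peaks lie in that upstream part, among them the widest of replicate 1, of 14003 bp. The shares are thus not those of the coding part alone. The H3K27ac peak called near a TRPC6 start in replicate 1 alone came from elsewhere. It was 6153 bp wide and lay 845 bp from the start of a non-coding transcript, 288555 bp upstream of the canonical start. Peaks of replicate 2 overlapped it in 4 stretches of 4165 bp in all. The nearest lay 1122 bp from that start, outside the 1 kb window. Within 2 kb of a TSS, H3K27ac counted in both replicates at TRPC6 and so at 6 of the 8 genes.

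NPHS1 encodes nephrin, the adhesion protein that spans the slit diaphragm. NPHS1 (ENSG00000161270) occupies chr19:36316274-36360189 on the minus strand. It was listed at 0 FPKM in library 1 and at 0.0127 in library 2, again 300 aligned bases. Values of 0 in both libraries were listed for 19.6% of protein-coding genes. No peak of any mark in either replicate lay within 1 kb of its canonical start at position 36343406. The nearest H3K27ac peaks were 46.1 and 47.6 kb away. The H3K4me3 and H3K27me3 calls of NPHS1 came from a retained-intron transcript that starts 6994 bp downstream. A further H3K4me3 call belonged to a non-coding transcript starting 16783 bp upstream, 186 bp from a start of APLP1, a gene on the opposite strand with 6.26 and 7.05 FPKM. Between these lies KIRREL2, which encodes a relative of nephrin, with 0.0359 and 0 FPKM. At a TSS, KIRREL2 had H3K4me3 in both replicates and H3K27me3 in replicate 1 alone. With TSSs of protein-coding transcripts alone, NPHS1 had none of the marks, and the number of genes with H3K4me3 fell from 7 to 6 and with H3K27me3 from 3 to 2.

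A wider list of 57 podocyte genes was split into 7 roles. Of these, 32 (56.1%, beside 58.8% of protein-coding genes) reached 1 FPKM in both libraries and 9 were listed at 0 in both, with a median of 6.29 FPKM beside 3.32 over protein-coding genes. By role, the expressed share was 8 of 10 for the basement membrane and its receptors, 10 of 14 for actin and its regulators, 3 of 3 for podocalyxin linkers, 5 of 12 for the slit diaphragm, 2 of 5 for calcium and phospholipase signalling, 3 of 7 for other markers and 1 of 6 for transcription factors. MYH9, a non-muscle myosin, had 568 and 559 FPKM, and ITGB1, an integrin subunit, 340 and 308 FPKM. EZR, which ties podocalyxin to actin, had 206 and 196 FPKM.

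The transcription factors WT1 and LMX1B were listed at 0 in both libraries, and FOXC1 was the member of that role above 1, at 4.50 and 4.41 FPKM. Among slit diaphragm genes FAT1 had 120 and 131 FPKM and KIRREL1, a nephrin relative, 77.3 and 74.8 FPKM. Among signalling genes TRPC5 and AGTR1 were listed at 0, and PPP3CA, a calcineurin subunit, had 21.0 and 17.6 FPKM. Of the basement membrane collagen genes COL4A3 was listed at 0, COL4A4 had 0 and 0.00549 FPKM, and COL4A5 had 1.67 and 1.33 FPKM. Among other markers, NPNT had 53.0 and 53.8 FPKM and CDKN1C 48.5 and 38.7 FPKM. Of the 31 wider-list genes with H3K27ac at a TSS in both replicates 28 were expressed, beside 90.3% of all such protein-coding genes. Of the 15 with H3K27me3 in both 1 was expressed, the tight junction gene TJP1, beside 15.1%. TJP1 also had H3K4me3 and H3K27ac at a TSS in both replicates, so it counts in both classes. ARHGAP24 and DAAM2 had the same calls and also count in both classes. Both lay below the threshold, at 0.562 and 0.770 FPKM for ARHGAP24 and 0.0201 and 0.0875 FPKM for DAAM2.

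**Figure D5:**
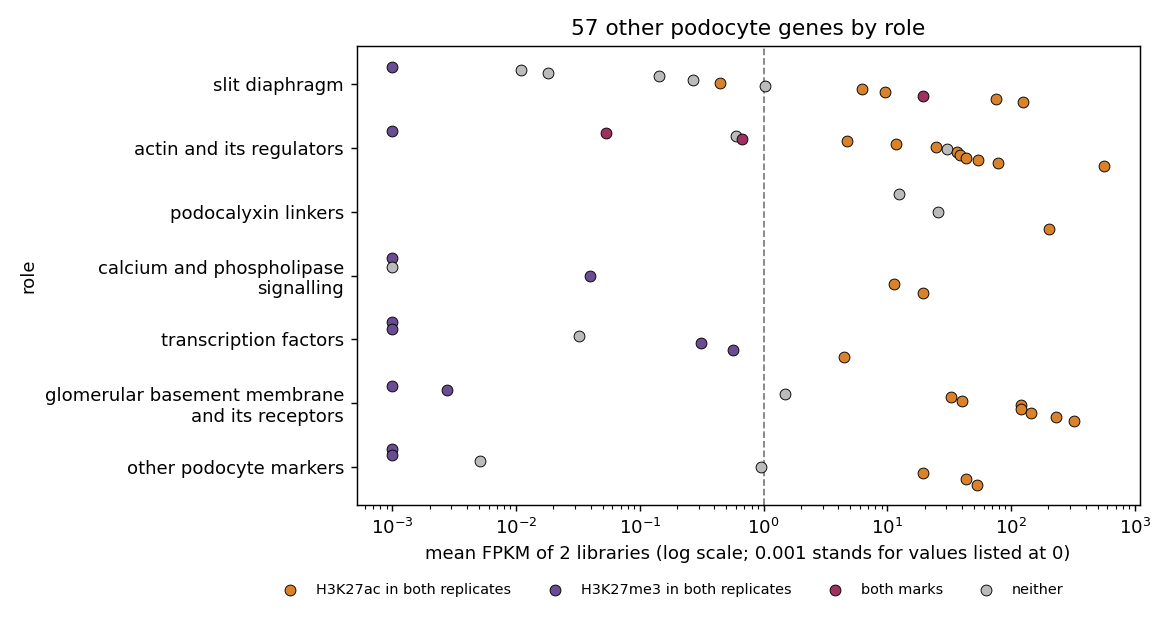
Mean FPKM of the 57 other podocyte genes on a log scale, grouped by role, with colour for H3K27ac or H3K27me3 peaks at a TSS in both replicates. The dashed line is 1 FPKM and values listed at 0 are drawn at 0.001. Of the 6 transcription factors 1 lies right of the line, against 8 of the 10 basement membrane genes.

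Each of the 8 genes was paired with the wider-list gene that had the same calls in all 6 peak lists and the nearest log10(FPKM + 1). ACTN4 was nearest to AGRN at 238 and 219 FPKM, and INF2 to LAMB2 at 29.2 and 36.4 FPKM. CD2AP was nearest to ITSN1 at 11.5 and 12.2 FPKM, SYNPO to PPP3CA, and PLCE1 to FOXC1. For these 5 genes 28 of the 57 wider-list genes had the same calls, beside 50.8% of protein-coding genes with these calls. Sharing them is thus common and does not set these pairs apart. NPHS1 shared its calls with 3 genes, of which COL4A4 was nearest, beside 4.27% of protein-coding genes with these calls. The calls of NPHS1 came from starts of non-coding transcripts, and its coding starts had no mark. No wider-list gene had the calls of TRPC6, which were rare, being found at 10 protein-coding genes. These calls joined H3K27me3 at the canonical start of TRPC6 to an H3K27ac call from a start 288555 bp upstream.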

How the data were processed

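HK2 cells were profiled by ChIP-seq and RNA-seq. Per the labels and the study's methods, the authors aligned ChIP-seq reads with Bowtie2 to hg19 and ran MACS2 on each replicate separately. The deposited lists hold chromosome and limits only, so the depth behind a peak is unknown. On the main chromosomes, replicates 1 and 2 of H3K4me3 hold 28615 and 73505 peaks, those of H3K27ac 57687 and 38554, and those of H3K27me3 45858 and 32639. Replicate 1 is the sample without a number in the labels. The authors deposited FPKM, TPM and coverage values from StringTie 1.3.3 with GENCODE version 27, whose coordinates are not those of the peaks. The ratio of coverage to FPKM puts the libraries at 5.67 and 5.52 Gb aligned to transcripts.

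Genes were joined by Ensembl identifier to GENCODE version 44 on GRCh37, which gave TSSs and gene limits, and 55822 genes matched. SLC9A3R1 and SLC9A3R2 were joined by identifier to newer names. FPKM was summed per gene, and percentiles are among 19645 protein-coding genes. Peaks were overlapped in Python 3.11.15 with numpy 2.4.6 and pandas 2.3.3, and the overlap was tested on simulated data against bedtools 2.31.1. Figures used matplotlib 3.10.9. Promoter sequence came from the GRCh37 genome. The 8 genes and all lists were chosen with earlier results of these data known. Named genes were the 8 genes, the 2 highest and 2 lowest of each role or family or fewer, the nearest gene by pattern, neighbours and markers. TJP1, COL4A5, ARHGAP24 and DAAM2 were named after their values were seen. Some listed genes and 1 promoter are not reported here. No test was made. Input DNA and HiChIP were not used here.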

Additional observations from a re-analysis of the deposited data

How the results depend on the processing

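No paired analysis was possible because there was 1 condition and no test. Counts of the 8 genes and of the wider list were recomputed under 54 alternatives and stayed within 1.5 times of the reported count in 51. The exceptions required peaks over at least 5% of the gene body in each replicate, which left 4 genes for H3K4me3, 3 for H3K27ac and 0 for H3K27me3. In replicate 2 H3K27me3 covered 4.68% of PODXL, 2.63% of NPHS1 and 2.35% of TRPC6. Leaving out a replicate gave 6 expressed genes either way, and 33 for the wider list. Without 1 ChIP-seq replicate, the counts at a TSS were 7 to 8 for H3K4me3, 5 to 6 for H3K27ac and 3 for H3K27me3. At 5 FPKM, 4 of the 8 genes passed. The rank of NPHS1 and TRPC6 rests on library 2, since both are listed at 0 in library 1. Peak lists differ in number and width between replicates, and read depth per peak was not available to weigh them. The study does report aligned reads and the fraction of reads in peaks for each ChIP-seq library. That fraction differed most between the H3K27ac replicates and was lowest for both H3K27me3 replicates. These values were not used to weigh the lists, so differences in coverage between replicates and missing peaks carry that limit.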

Other observations

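Relatives of the 8 genes were measured in the same libraries. Of 34 relatives, 18 (52.9%, beside 58.8% of protein-coding genes) reached 1 FPKM in both libraries. ACTN1, the other α-actinin of non-muscle cells, had 169 and 163 FPKM, while the muscle form ACTN3 had 0 and 0.0176 FPKM. Each of the 7 formins listed beside INF2 reached the threshold, from DIAPH2 at 2.31 and 2.57 FPKM to DIAPH1 at 44.9 and 25.8 FPKM. All 7 had H3K4me3 and H3K27ac at a TSS in both replicates without H3K27me3, as did 50.8% of protein-coding genes. Of the genes with that pattern and RNA-seq values, 92.9% reached the threshold. PODXL2, the relative of podocalyxin, had 37.4 and 39.3 FPKM, above PODXL in both libraries, and CD34 was listed at 0.

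Among channels related to TRPC6, TRPC4 had 7.76 and 7.32 FPKM and TRPC1 had 6.14 and 7.13 FPKM, both with H3K4me3 and H3K27ac in both replicates. TRPC5 was listed at 0, with H3K27me3 in both replicates. Among phospholipases related to PLCE1, PLCB4 had 39.4 and 42.5 FPKM and PLCG1 had 30.8 and 32.5 FPKM, above PLCE1 in both libraries, while PLCH2 had 0.0267 and 0.00742 FPKM. The CD2AP relative SH3KBP1 had 21.1 and 19.0 FPKM, and the SYNPO relative SYNPO2 had 0.224 and 0.134 FPKM.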
